A study of Zostera marina with 23 samples.

Results

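Root and male flower of eelgrass, Zostera marina, were compared across all measured genes. Eelgrass is a seagrass, a flowering plant that lives, flowers and is pollinated under water. The comparison used 4 root libraries and 7 male flower libraries, 11 of the 23 libraries of the series, and took them by their labelled tissue, without any use of measured values. The other libraries came from leaf (n = 6) and from female flower at an early (n = 3) and a late (n = 2) time point, and 1 library with conflicting stage labels was left out. Every group shared the same origin: shoots from a natural stand were planted in seawater tanks, the tank water was raised from 5 to 15 °C, and daylight was extended stepwise from 12 to 16 hours so that the plants would flower. No genotype, age or treatment other than this was given, the developmental stage of the male flowers was not stated, and nothing said that the replicates came from separate plants. The p-values therefore measure the spread between these libraries, which may be technical.

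Eelgrass roots grow from the creeping rhizome in soft, oxygen-poor sediment, where they anchor the plant and take up nutrients. Male flowers consist of anthers borne beside female flowers on a flattened axis inside a leaf-like sheath. Their pollen is thread-shaped, lacks the sculptured outer wall of most land plant pollen, and is shed into the water. Plant anthers and pollen in general are known for transcriptomes that differ widely from those of other organs. The files pair the gene identifiers with no names, so marker genes could not be used to check the tissue labels, pathways could not be followed, and no sequence is shown. Genes are given by identifier and by their levels in each tissue.

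Levels are in scaled fragments, that is sequenced fragments per gene multiplied by 1 factor per library. Library depth was 5696797 to 13133091 fragments in male flower and 9298406 to 13332216 in root, and 13878 to 15825 genes in male flower and 15152 to 16480 in root had at least 3 fragments. The first principal component of log2(scaled fragments + 1) held 68.4% of the variance and separated all 4 roots from all 7 male flowers. One library of each tissue stood apart. Root replicate 2 correlated across genes at a mean of 0.797 with the other roots, against 0.872 to 0.889 for the remaining 3, and its mean correlation with leaf was 0.789. Male flower replicate 5 correlated at 0.804 with the other male flowers, against 0.860 to 0.911 for the remaining 6.

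More than 50% of the tested genes differed between root and male flower, in nearly equal numbers in each direction. Of 16780 genes with at least 10 scaled fragments in at least 2 of the 11 libraries, 4410, or 26.3%, were higher in root, and 4511, or 26.9%, in male flower. A gene was called at an adjusted p under 0.05 (limma on log2(scaled fragments + 1), Benjamini-Hochberg adjustment) and a difference of at least 2-fold. Together 53.2% of the genes were called. Without root replicate 2 the numbers were 4451 and 4311, and 8125 of the 8921 reported calls were made again. In bulk tissue, fewer cells of a type and less RNA per cell cannot be told apart.

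**Figure D1:**
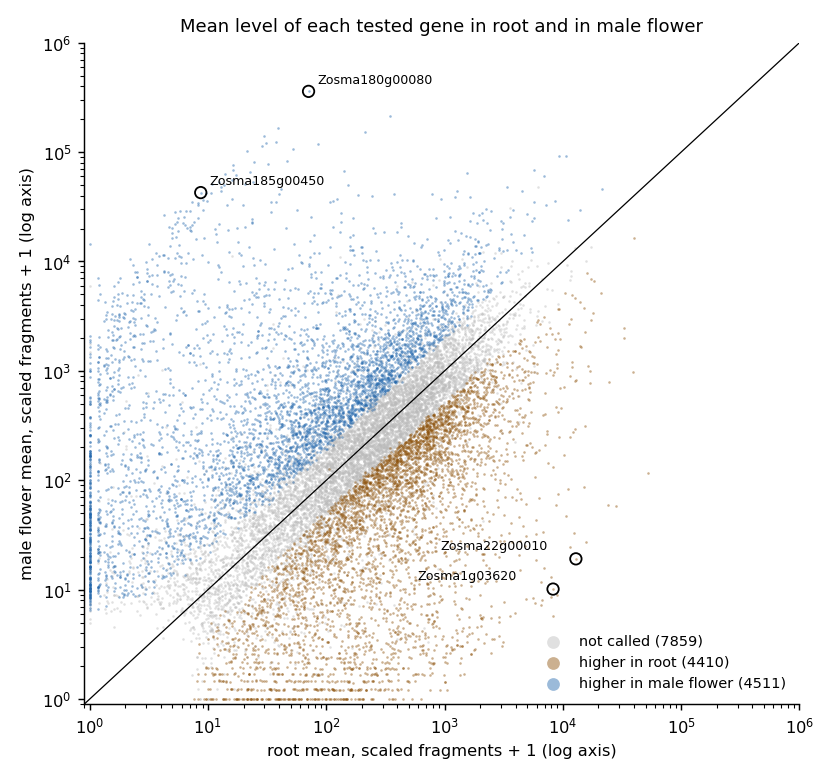
Mean level of each of the 16780 tested genes in root (horizontal, n = 4) and in male flower (vertical, n = 7), in scaled fragments + 1 on log axes, with the line of equal level. The 4410 genes called higher in root lie below the line and the 4511 called higher in male flower above it, and the 4 named genes are circled.

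The balance of directions depended on the scaling of the libraries. Deposited values summed to 7946495 to 9199338 per root library and to 10845975 to 25737103 per male flower library, without overlap. When the libraries were scaled to equal sums, 7293 genes, or 43.5%, were higher in root, and 2818, or 16.8%, in male flower. The median over all tested genes of the log2 fold change, root minus male flower, then moved from 0.05 to 0.99. Without root replicate 2 the equal-sum numbers were 7066 and 2711. All 4410 genes reported as higher in root were called higher in root again with equal sums. Of the 4511 reported as higher in male flower, 2816 were called again, or 62.4%. The other 1695 kept their sign but no longer passed. Because equal sums moved the fold changes towards root, these numbers follow largely from the shift and are no check on the root calls. With equal sums and without root replicate 2, 61 of the 8921 reported calls changed sign, 0 of them past the test. Which scaling is nearer to RNA amounts per cell was not tested.

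**Figure D2:**
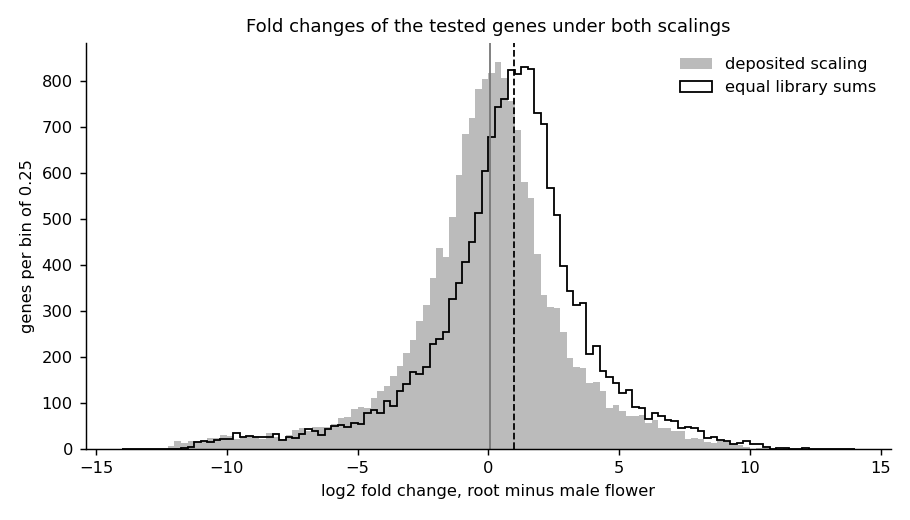
Log2 fold changes of the 16780 tested genes, root minus male flower, in bins of 0.25, with the deposited scaling (grey) and with libraries scaled to equal sums (black outline). The vertical lines mark the medians, 0.05 for the deposited scaling (solid) and 0.99 for equal sums (dashed).

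With all 11 libraries, the largest differences lay on the male flower side under both scalings. With the deposited values 1379 genes were at least 16-fold higher in male flower, and 1187 in root. At 256-fold or more there were 372 genes on the male flower side and 104 on the root side, and at 1024-fold or more there were 161 and 5. With equal sums the numbers at 16-fold changed order, to 1060 on the male flower side and 1779 on the root side, but at 256-fold they were 309 and 190 and at 1024-fold 91 and 29. These numbers by fold were not computed without root replicate 2. In that library the 104 root genes over 256-fold had their lowest median log2 level, 7.99 against 10.7 to 11.2 in the other roots. The median absolute log2 fold change of the called genes was 2.76 for those higher in male flower and 2.63 for those higher in root. With genes at 0 in the lower tissue set to their lower bound, these medians were 2.72 and 2.59. All 4 roots were above all 7 male flowers for 3180 genes, and all 7 male flowers were above all 4 roots for 3689, beside the 53.2% of genes called. Without root replicate 2 these numbers were 4244 and 4046, so the order turned. With equal sums the order also turned, at 5218 with all roots above and 2206 with all male flowers above. Without root replicate 2 the equal-sum numbers were 6177 and 2483.

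Some genes were detected in 1 of the tissues only. Among the genes called higher in male flower, 245 were at 0 in all 4 roots, and among those called higher in root, 125 were at 0 in all 7 male flowers. The 2 counts are not on equal terms, because the first needs a 0 in 4 libraries and the second in 7. The levels of these genes were mostly low. The male flower genes of this kind had a median level of 36.3 scaled fragments in male flower, and for 122 of them the difference was at least 16-fold when each root library was given a floor of 3 fragments. One of them averaged 14549 scaled fragments in male flower, at least 6297-fold higher than that floor. The root genes had a median level of 47.1 in root, 37 of them reached 16-fold with the same floor in male flower, and the highest bound was 104-fold. A floor of 3 fragments was worth 6.06 scaled fragments on average in male flower and 2.31 in root. Of the 245 genes, 62 were also at 0 in every leaf and female flower library, as were 35 of the 125. Floors cover counting error only.

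Zosma180g00080 was the most abundant gene of every male flower library. It stood at 114111 scaled fragments in the lowest male flower library, replicate 5, at a median of 369315 and at 601990 in the highest, replicate 1. The 4 roots, in the order of their numbers, held 72.5, 56.7, 58.1 and 92.0 scaled fragments. It alone took 1.05% to 2.37% of the whole signal of a male flower library. The groups were separated by more than 3 orders of magnitude, and the log2 fold change, root minus male flower, was -12.18 (SE 0.409, adjusted p = 1.38e-09, limma). Leaf held 137.8 ± 117 (SD, n = 6), late female flower 156 ± 99.4 (n = 2), and early female flower 80.2, 128 and, in replicate 0, 5245.

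Zosma185g00450 showed the same separation at a lower level. The male flower libraries ran from 16724 in replicate 5 over a median of 41302 to 63157 scaled fragments in replicate 3. The roots held 8.65, 4.48, 11.1 and 6.52, which were 13, 6, 13 and 8 counted fragments. Its log2 fold change was -12.20 (SE 0.373, adjusted p = 6.58e-10, limma). Per length it ranked 12 among all genes in male flower, at 9288 ± 3277 FPKM (SD, n = 7), just ahead of Zosma180g00080 at rank 15 with 9101 ± 4146. In leaf it stood at 14.6 ± 11.1 scaled fragments (n = 6), and in early female flower at 775, 8.38 and 94.2. Both genes were called in every alternative run, with equal sums at -11.31 for Zosma185g00450 and -11.23 for Zosma180g00080.

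On the root side, Zosma22g00010 had the largest fold change among called genes without overlap that averaged at least 100. Zosma1g03620 exceeded it with a pseudocount of 0.1 (13.07 against 12.87), in the FPKM table (13.24 against 10.99) and with library weights (12.82 against 12.07). For Zosma22g00010 the roots held 17622, 14410, 2558 and 16929 scaled fragments, of which the low value was root replicate 2. Male flower replicates 0, 1 and 4 were at 0, replicates 2 and 3 at 1.63 and 1.45, or 1 fragment each, and replicates 5 and 6 at 40.8 and 83.1. All roots lay above all male flowers, and the log2 fold change was 11.26 (SE 1.30, adjusted p = 2.06e-05, limma). It was 11.92 without root replicate 2 and 11.98 without male flower replicate 6. In leaf the gene was uneven, with 2094 in replicate 1, 7544 in replicate 4 and 26.3 to 62.4 in the other 4 libraries.

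Zosma1g03620 was the other root gene. The roots held 14894, 15095, 612 and 2432 scaled fragments, and 5 of the 7 male flowers held 0, with 15.3 in replicate 5 and 48.6 in replicate 6. It was at 0 in all 5 female flower libraries and at 10.1 ± 4.17 in leaf (SD, n = 6). The log2 fold change was 10.68 (SE 1.31, adjusted p = 3.44e-05, limma). This estimate moved with single libraries, but the call held. It was 11.62 without root replicate 2, 11.39 without male flower replicate 6, and 10.08 without either root replicate 0 or root replicate 1. Its mean of 10909 FPKM ranked 1 in root, with a spread of 10292 (SD, n = 4). That rank is uncertain, because the ratio of the deposited tables puts its effective length at 0.0539 of the median of the genes not called, where FPKM depends strongly on the assumed length. Male flower libraries at 0 numbered 5 for this gene and 3 for Zosma22g00010, so the fold changes of both depend on the pseudocount and are no lower bounds.

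**Figure D3:**
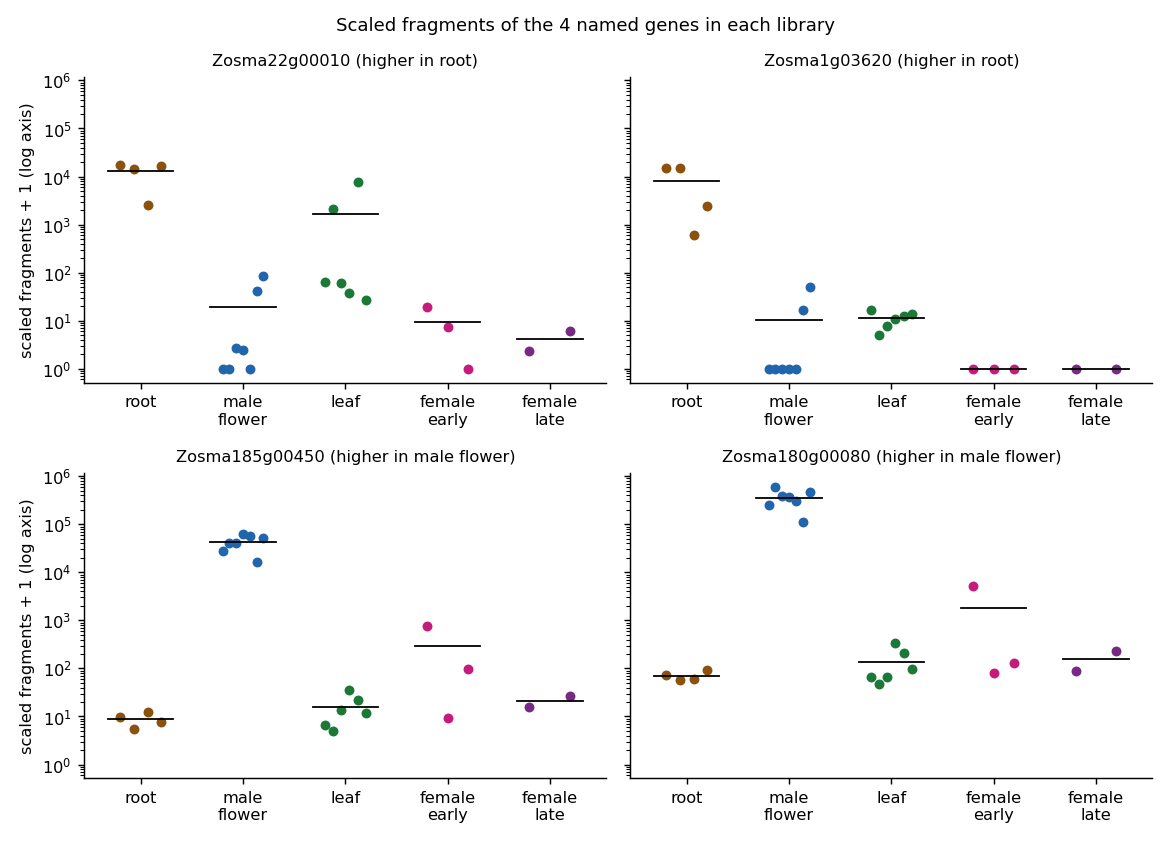
Scaled fragments + 1 of the 4 named genes in each library, on a log axis, by tissue (points are libraries in the order of their numbers, bars are group means). Zosma22g00010 and Zosma1g03620 are high in root and lowest there in replicate 2, and Zosma185g00450 and Zosma180g00080 lie between 16724 and 601990 in male flower and at 4.48 to 92.0 in root.

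Male flower put far more of its signal into few genes than root did. The 10 most abundant genes of a library held 10.2% ± 2.81 (SD, n = 7) of the signal in male flower and 4.22% ± 0.231 (n = 4) in root. The 100 most abundant held 20.6% to 37.0%, with a median of 34.9%, in male flower, and 16.9%, 15.8%, 17.3% and 17.6% in the roots. The 1000 most abundant held 54.9% to 75.0% in male flower and 46.0% to 49.2% in root. For 50% of the signal, male flower libraries needed 235 to 774 genes, with a median of 296, and the roots needed 1107, 1221, 1074 and 1041. In each of these 4 measures no male flower overlapped with a root. Per length, in FPKM, male flower replicate 5 lay within the root range for the top 10 and the top 100, at 7.14% against 6.30% to 8.19% and at 22.0% against 19.8% to 22.6%, and there was no overlap in the other 2 measures.

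These shares do not depend on the factor of the library. For each of the 4 measures the two-sided exact permutation p was 0.00606, the smallest that 330 divisions of 11 libraries can give, or 0.00909 after Benjamini-Hochberg adjustment over 6 library measures. The order held without root replicate 2, where the mean of the top 100 was 16.8% in root. Male flower replicate 5 was the nearest to root in all 4. Its 774 genes for 50% of the signal compare with 235 to 363 in the other 6 male flowers.

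**Figure D4:**
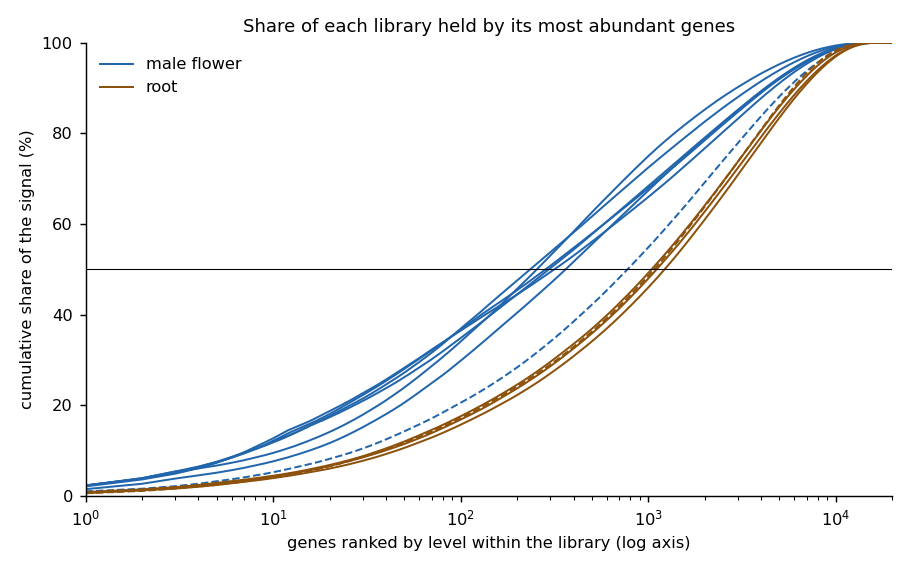
Cumulative share of the signal (%) against the rank of the genes by level within each library (log axis), for 7 male flowers (blue) and 4 roots (brown), with male flower replicate 5 and root replicate 2 dashed. The line at 50% is crossed after 235 to 774 genes in male flower and after 1041 to 1221 genes in root.

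Root and male flower shared few of their most abundant genes. Levels were compared between genes per length, by mean FPKM. Of the 100 genes with the highest FPKM in root and the 100 highest in male flower, 3 were shared, and of the 1000 highest, 266. Of the top 100 of male flower, 99 were called higher in male flower (98 with equal sums), with a median of 3391 FPKM in male flower and 2.94 in root. Of the top 100 of root, 79 were called higher in root (90 with equal sums) and 5 higher in male flower, with a median of 784 FPKM in root and 76.4 in male flower. These lists were ranked by the same libraries, so the counts describe them and are no test.

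The share of genes called varied with their level. The level of a gene was taken as the average of its root and male flower means in log2. Among the 10% of genes with the highest level, 35.9% were called for male flower and 16.6% for root. Among the 1678 genes with levels from 3.24 to 4.55, the second-lowest 10%, the figures were 25.4% and 34.3%, the largest share for root. In the lowest 10% they were nearly equal, at 28.7% and 28.4%. With equal sums the most abundant 10% had 19.5% called for male flower and 35.3% for root, so which tissue led there depended on the scaling. The genes higher in male flower had a median effective length of 0.941 times that of the genes not called, and those higher in root 1.03 times.

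Leaf and female flower showed where the called genes stood in tissues outside the comparison. The genes higher in root had a median log2 level of 8.01 to 8.53 across the roots and 4.81 to 5.55 across the male flowers, and stood between them in leaf, at 7.11 to 7.74, and in female flower, at 6.94 to 7.19. The genes higher in male flower had a median of 8.41 to 9.14 across the male flowers and 5.14 to 5.83 across the roots. In leaf they were at 5.13 to 6.51, overlapping the roots, and in female flower at 6.60 to 6.82, above every root. By these medians, with the deposited scaling, leaf and female flower lay nearer to root than to male flower for both sets of genes. The medians were not computed with equal sums, so whether this order depends on the scaling was not tested.

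With larger differences, the genes were closer to a single tissue. The 372 genes over 256-fold higher in male flower had medians of 10.5 to 12.5 in male flower, 1.44 to 1.87 in root, 1.27 to 2.80 in leaf and 2.05 to 5.58 in female flower, where the highest was early replicate 0. The 104 genes over 256-fold higher in root had medians of 10.7, 10.7, 7.99 and 11.2 in the roots, the low value being replicate 2, and 0 in all 5 female flowers. In male flower their median was 0 in 5 libraries and reached 2.61 and 3.14 in replicates 5 and 6, and in leaf it was 2.34 to 3.11. In contrast, the 1526 genes that were 2 to 4-fold higher in root had a median of 8.54 to 8.73 in root and 8.40 to 8.67 in leaf, which overlap. Their medians in female flower, 8.31 to 8.37, lay below every root. The 1400 genes 2 to 4-fold higher in male flower had medians of 8.72 to 9.20 there. These lay above leaf, at 7.87 to 7.92, and female flower, at 7.85 to 7.96.

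**Figure D5:**
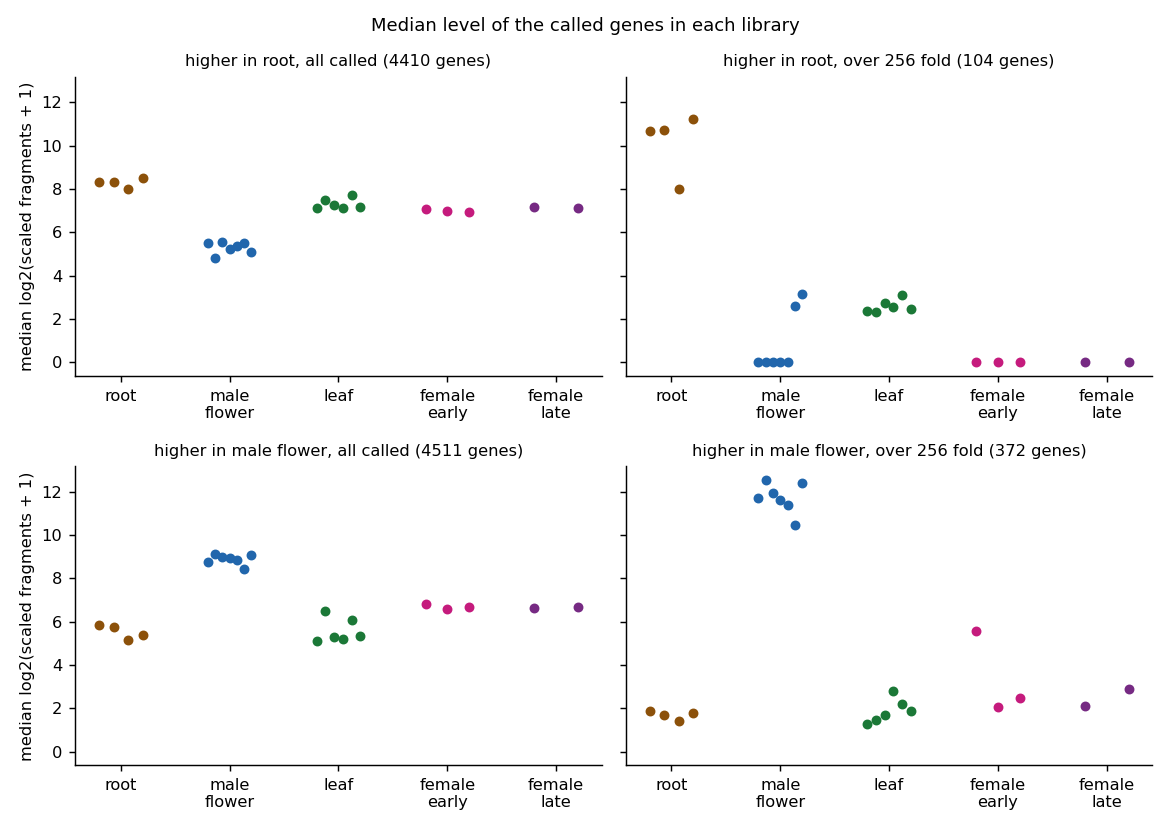
Median log2(scaled fragments + 1) of the genes called higher in root (top) and higher in male flower (bottom), for all called genes (left) and those over 256-fold (right), in each library by tissue. The 104 root genes over 256-fold have medians of 0 in all female flowers and in 5 male flowers, and the 372 male flower genes over 256-fold are below 6 outside male flower.

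Female flower against leaf is a comparison with no library in common with root against male flower. In it, 28.1% of 15788 tested genes were higher in female flower and 21.0% higher in leaf (limma, the same thresholds). Over the 15201 genes tested in both comparisons, the figures were 27.6% and 20.9%. Of the 3759 genes higher in male flower, 33.6% were higher in female flower than in leaf and 14.4% were higher in leaf. Of the 3891 genes higher in root, 20.6% were higher in female flower and 32.3% in leaf. Put the other way, 39.5% of all genes higher in leaf were called for root and 17.0% for male flower, while of all genes higher in female flower 30.1% were higher in male flower and 19.1% in root. With equal sums in both comparisons, 36.2% of all genes were higher in female flower and 14.1% in leaf. Of the genes higher in male flower, 45.7% were then higher in female flower and 9.07% in leaf. Of those higher in root, 29.4% were higher in female flower and 19.5% in leaf, so the order of the 2 shares turned for root, while each stayed on the same side of the share of all genes. The root list, then 6721 of the 15201 genes, took up 35.9% of all genes higher in female flower. The male flower list, then 2117 genes, took up 17.6%. The order of these 2 shares also turned, but they depend on the sizes of the lists.

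The roots differed among themselves in the genes called between leaf and female flower. The 3314 genes higher in leaf than in female flower held 20.1%, 21.4%, 36.6% and 28.0% of the signal of root replicates 0 to 3, and 10.6% to 14.7% of that of the male flowers. Root replicate 2 correlated with leaf at a mean of 0.789, against 0.607 to 0.679 in the other roots. Replicates 0 and 1 correlated more with early female flower, at 0.640 and 0.627, than with leaf, at 0.607 and 0.620. Replicates 2 and 3 correlated more with leaf, at 0.789 and 0.679, than with early female flower, at 0.604 and 0.547. How the genes called higher in root divide between leaf and female flower was not computed without root replicate 2. Root replicate 2 also had 34 genes at 0 where each of the other roots exceeded 100, against 0 or 1 such gene in each of the other roots. It was the lowest root for 1976 of the 4410 genes called higher in root, or 44.8%. The median range of these genes over the 4 roots was 1.39 in log2, and 0.67 without that replicate. Male flower replicate 5 was the lowest male flower for 2183 of the 4511 genes called higher in male flower, or 48.4%, and the median range of these genes was 2.16 over all 7 and 1.33 without it. The part of these libraries in the reported calls was measured by leaving them out: without both, root was higher for 4865 genes and male flower for 4600.

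Traces of each tissue's genes in the other were measured on genes chosen without use of the other tissue. Of these, 291 genes were at least 16-fold higher in every male flower than in any leaf or female flower library and averaged at least 100 scaled fragments. They held 11.7% to 14.5% of the signal in male flower and 0.179%, 0.173%, 0.062% and 0.211% in the 4 roots, where 64 to 89 of them were at 0. The 89 genes found in the same way for root held 1.19% to 1.92% of the signal in root and 0.0109% to 0.0418% in male flower. In male flower replicates 0 to 4, 45 to 61 of the 89 were at 0, against 29 in replicate 5 and 16 in replicate 6. Such counts depend on depth. It was 13133091 fragments in replicate 6, the deepest male flower, 6376289 in replicate 5 and 5696797 in replicate 1, which had 61 at 0. Over all genes, replicates 5 and 6 had 17213 and 17120 above 0, against 15732 to 17045 in the other male flowers. The part of depth in the counts at 0 was not tested. By share of the signal replicates 5 and 6 did not stand out. They held 0.0326% and 0.0199%, between 0.0109% in replicate 1 and 0.0418% in replicate 4. The named root genes had their highest male flower values in the same 2 libraries.

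Identifiers with the prefixes ZosmaC and ZosmaM made up little of either tissue. Of 92 ZosmaC identifiers 10 were tested, and 9 were higher in male flower and none in root under both scalings, beside 26.9% of all tested genes higher in male flower with the deposited scaling and 16.8% with equal sums. Of 104 ZosmaM identifiers 17 were tested, and 10 were higher in male flower, or 7 with equal sums, and none in root. ZosmaC identifiers held 0.00271% to 0.0937% of the signal in male flower and 0.000946% to 0.00361% in root (two-sided exact permutation p = 0.0182, adjusted p = 0.0218 over 6 measures). ZosmaM identifiers held 0.00586% to 0.2065% and 0.00320% to 0.0173% (exact permutation p = 0.0485, adjusted p = 0.0485). Both ranges overlapped, the highest value in each case was male flower replicate 5, and neither call was stable. The ZosmaM call was lost in 8 of 11 omissions of 1 library, with an adjusted p of 0.117 without root replicate 2 and 0.0762 without male flower replicate 5 (exact permutation). The ZosmaC call was lost without root replicate 0 and without root replicate 2, at an adjusted p of 0.06 each (exact permutation).

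Genes with consecutive identifiers of the same scaffold number were called in the same direction slightly more than genes at large. Of the 3609 genes higher in root whose next identifier was tested, the next was also higher in root in 30.2% and higher in male flower in 24.0%. Of all 13753 such pairs, the next identifier was higher in root in 26.0%. For the 3634 genes higher in male flower, the next was higher in male flower in 30.4%, against 26.5% of all pairs, and higher in root in 23.2%. There were 17 runs of at least 5 consecutive identifiers higher in root, with 97 genes in all and a longest run of 8, and 18 such runs higher in male flower, with 96 genes and a longest run of 10. The differences from all pairs were not tested.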

How the data were processed

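Per the labels' protocols, RNA was selected with oligo(dT) beads and sequenced as pairs of reads on Illumina HiSeq. TopHat2 2.0.12, Cuffnorm 2.2.1 and Cuffdiff 2.2.1 are named in the submitters' processing notes without role or order. Build, annotation and strand setting: not given in the sources used here. Near-identical, overlapping or antisense genes may share fragments. The authors' deposited count table holds a signal of fragments times 1 factor per library. In the 11 libraries, 99.8% to 99.9% of low values were whole multiples (tolerance 0.01) of a step of 0.665 to 4.52, and a few were residues close to 0. The step gave depth and floors. The other deposited table gives FPKM as the authors computed it.

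Groups came from the titles. No replicates agreed within sampling noise, with a smallest chi-square per degree of freedom of 17.7. Log2(value + 1) of the 11 libraries went into limma 3.58.1 under R 4.3.3, using a robust eBayes fit with a mean trend, with the deposited scaling and no replicate block. Library measures were tested with exact permutation in scipy 1.17.1. Python 3.11.15, numpy 2.4.6, pandas 2.3.3 and matplotlib 3.10.9 were used. The genes named are the 2 per direction with the largest fold among called genes whose groups do not overlap and whose higher group averages at least 100. The limma fit was tested on simulated, normally distributed log2 values with known changes. The simulation held no outlying library and no difference in scaling between libraries. Lists by product name were planned but no names were given, so they were not analysed here. The comparison, thresholds and alternatives were chosen with earlier results of these data known. The sets of 291 and 89 genes, the runs of identifiers and the division by level were chosen after the values were seen. Alternatives covered pseudocounts, filters, scalings, the FPKM table, library weights, all 5 groups in 1 fit, the replicate block and omitted libraries.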

Additional observations from a re-analysis of the deposited data

Results flagged for a closer look

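Of 32 groups of 4 to 7 libraries looked at, 5 held a library far from the others by Dixon's gap criterion, which chance flags in about 1 of 20 groups. Male flower replicate 5 needed 774 genes for 50% of its signal. The same library held 0.0937% of its signal in ZosmaC identifiers and 0.2065% in ZosmaM identifiers. Leaf replicate 4 held 7544 scaled fragments of Zosma22g00010. Male flower replicate 6 held 48.6 scaled fragments of Zosma1g03620, a gene at 0 in 5 other male flowers. Explanations were not tested.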

How the results depend on the processing

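The numbers of genes higher in root and in male flower moved with scaling to equal sums, to 7293 and 2818, to 7066 and 2711 without root replicate 2, and to 7933 and 2855 without root replicate 2 and male flower replicate 5, the last chosen after seeing the data. With calls at 4-fold they were 2884 and 3111. In all other settings both numbers stayed within 1.5 times those reported. With 1 library left out at a time, 8082 to 9369 genes were called, 3921 to 4695 of them higher in root and 4154 to 4674 higher in male flower. The named genes kept their direction and their call in every setting, with absolute log2 fold changes from 8.19 to 13.3. Leaving out 1 library at a time, the difference root minus male flower was -6.77 to -5.52 percentage points in the top 10 genes, -18.0 to -15.2 in the top 100, -21.6 to -18.2 in the top 1000, and 714 to 819 genes in those that hold 50% of the signal, and each passed the test. It was -0.0197 to -0.0045 for ZosmaC, which lost its call without root replicate 0 or 2, and -0.0464 to -0.0130 for ZosmaM, which lost its call in 8 of 11 omissions. The estimated library weights did not converge, so the 10557 genes called with them are of little use. The labels do not say that replicate numbers pair the libraries, and no sign of it was seen. Deviations of same-numbered roots and male flowers correlated at -0.20 to -0.04, and 0 of 4 roots correlated best with its own number. With only 4 roots, of which replicate 2 stood apart, this cannot exclude a pairing. With the replicate number as a block, 7917 genes were called, 3735 higher in root and 4182 higher in male flower. Count models, listed among the alternatives, were left out: 99.8% to 99.9% of low values were whole multiples of 1 step, but 1 to 4 values per library lay below it. Depth limits statements on genes at 0 to the floors given.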
